A study of Mus musculus with 2 samples.

Results

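Mitosis is the step of the cell cycle in which copied chromosomes are condensed, attached to a spindle and shared out between daughter cells, and 48 genes that act in it were followed here in mouse spleen cells with and without dietary fucose. They were listed by name, with earlier results of these data known. Of the 48, 47 had a probe set of their own on the arrays, out of 22180 genes measured in all. Ncapg was represented only by a probe set that also names Lcorl and was left out of all counts. The listed Sgol1 carries its current name, Sgo1, on the array and is called that below. Where a gene had more than 1 probe set, the brighter one (by the mean of the 2 arrays) was used.

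The series had 2 arrays, and both carried RNA from spleens of Fx-/- mice, which lack an enzyme of GDP-fucose synthesis and so depend on supplied fucose. One array held cells of fucose-treated mice and is called on fucose. The other held cells of mice with no fucose treatment and is called off fucose. Both were labelled cDC1, the cross-presenting type 1 dendritic cell, and the splenocytes had been depleted with antibodies to B220 and CD11b and then selected for CD11c, per the series' design text. No wild-type array, age, sex or number of pooled animals is given in the labels used here. Because each group is 1 array, nothing could be tested, no value below has a replicate error, and the number of arrays limits the precision of every comparison.

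The 2 arrays differed in more than fucose supply. Xist, the RNA of the inactive X chromosome in female cells, had 8.26 on the log2 intensity scale on fucose and 2.82 off it, so the sex of the mice and the treatment cannot be told apart. Gfus, the current name of Fx, had 4.89 and 4.50, and without a wild-type array this checks no genotype. Markers of T cells were high on both arrays, with medians of 9.79 (on fucose) and 9.29 (off fucose) over 11 measured genes of 13. Genes of a cDC1 list had medians of 4.18 (on fucose) and 5.49 (off fucose) over 13 measured genes of 14. The receptor gene Xcr1 was among the dimmer of these. It had 2.90 and 3.43, close to the median of all probe sets (2.81 on fucose and 2.82 off fucose). Clec9a, another defining cDC1 marker, had no probe set of its own. The label cDC1 therefore does not describe all cells that gave RNA.

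Dividing cells switch on most mitosis genes together, late in the cycle, and resting cells keep them silent. In resting cells the DREAM complex, built on the MuvB core, holds these promoters down, and in G2 and mitosis the same core works with B-Myb and FoxM1 to activate them. MuvB binds a short element near the start site, the cell cycle genes homology region (CHR), and many of these promoters also carry CCAAT boxes, which bind the factor NF-Y. Most blood cells in a resting spleen do not divide, whereas precursors of red cells and granulocytes do.

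The promoters of the listed genes share these letters, which played no part in choosing the list. RefSeq promoter sequences (build GRCm38.p6, 250 bases before to 50 bases after each start) were found for 42 of the 48 genes, as 44 promoters, since Prc1 and Ect2 each had 2 that overlap. The CHR was searched as TTTGAA on both strands, and also in its variant form TTTAAA, and the CCAAT box as CCAAT on both strands. Overlapping matches were each counted. The stretches below are the 120 bases before the start of 8 of the genes, 5′ to 3′ on the gene's strand, with matches to TTTGAA or its reverse complement TTCAAA and to CCAAT or its reverse complement ATTGG in capitals. The 7 upper ones were chosen after the search because a CHR match lies wholly before the start, and Nusap1 is shown as a promoter with no match. Further members, such as Cdca5 and Kif15, also hold such a match and are not printed. The 7 are therefore not a measure of where the match usually lies.
Cdk1 (chr10:69352913-69353032, minus strand): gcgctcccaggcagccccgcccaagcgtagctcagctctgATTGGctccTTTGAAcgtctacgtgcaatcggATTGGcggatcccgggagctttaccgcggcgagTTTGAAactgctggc
Cdc20 (chr4:118437344-118437463, minus strand): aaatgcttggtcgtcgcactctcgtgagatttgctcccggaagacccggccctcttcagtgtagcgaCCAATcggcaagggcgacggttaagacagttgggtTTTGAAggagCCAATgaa
Mki67 (chr7:135716380-135716499, minus strand): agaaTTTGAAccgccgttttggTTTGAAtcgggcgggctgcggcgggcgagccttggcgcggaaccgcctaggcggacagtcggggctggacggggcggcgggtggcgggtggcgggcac
Top2a (chr11:99024190-99024309, minus strand): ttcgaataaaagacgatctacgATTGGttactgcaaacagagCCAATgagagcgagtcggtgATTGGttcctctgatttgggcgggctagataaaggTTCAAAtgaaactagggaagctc
Ube2c (chr2:164769809-164769928, plus strand): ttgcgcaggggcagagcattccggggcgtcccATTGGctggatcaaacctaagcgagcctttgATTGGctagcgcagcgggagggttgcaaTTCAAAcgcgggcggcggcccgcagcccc
Kif11 (chr19:37376262-37376381, plus strand): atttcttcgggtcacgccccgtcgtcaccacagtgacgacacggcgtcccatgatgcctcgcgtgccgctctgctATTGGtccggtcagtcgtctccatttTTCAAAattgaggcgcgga
Kif22 (chr7:127042421-127042540, minus strand): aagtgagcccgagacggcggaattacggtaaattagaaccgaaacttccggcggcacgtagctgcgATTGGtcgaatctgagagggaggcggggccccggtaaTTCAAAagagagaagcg
Nusap1 (chr2:119618178-119618297, plus strand): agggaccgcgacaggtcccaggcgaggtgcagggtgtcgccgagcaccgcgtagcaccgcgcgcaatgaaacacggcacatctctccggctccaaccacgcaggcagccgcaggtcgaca
In 5 of the 7, the CHR match nearest the start began between 29 and 17 bases before it, as in Ube2c at the far end and Kif22 at the near end. In Cdk1 it began 15 bases before the start, and in Mki67, the gene of the Ki-67 protein, 98 bases before it. Top2a carried 3 CCAAT matches in this stretch, Cdk1, Cdc20 and Ube2c carried 2, and Kif11 and Kif22 carried 1.

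A match to TTTGAA on either strand was present in 35 of the 44 promoters (79.5%), beside 17.9% of all 32851 promoters in the table. The match lay near the start. Within 40 bases on either side of it, 31 of the 44 promoters (70.5%) and 4.16% of all promoters held one. The variant TTTAAA was found in 20.5% of the 44 promoters and 13.2% of all. A CCAAT box was present in 34 of the 44 (77.3%), beside 37.4% of all promoters, and 2 or more were present in 23 of the 44 (52.3%), beside 11.7%. Both a TTTGAA match and a CCAAT box were held by 29 of the 44 (65.9%), beside 6.95% of all. Promoters of further mitosis genes outside the 48 held a TTTGAA match in 28 of 63 cases (44.4%), a CCAAT box in 66.7% and both in 33.3%. Promoters of relatives of these genes that act outside mitosis or in all cells held a TTTGAA match in 3 of 46 cases (6.52%). A match describes letters in the window and is not a shown binding site.

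**Figure D1:**
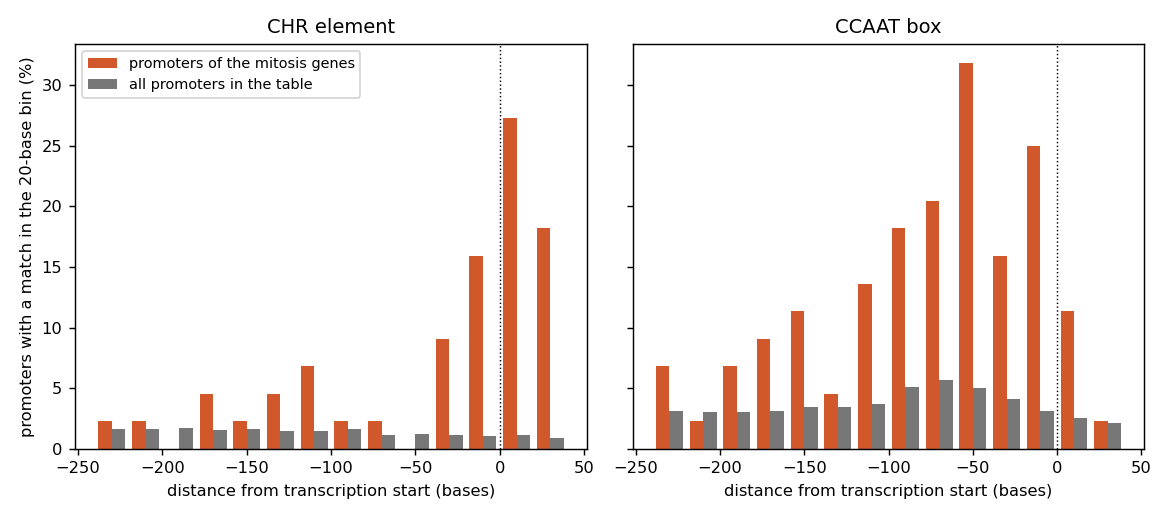
Share of promoters, in percent, with a match beginning in each 20-base bin, against distance from the transcription start in bases, for TTTGAA or its reverse complement (left) and CCAAT or its reverse complement (right). Orange bars are the 44 promoters of the mitosis genes and grey bars all 32851 promoters in the table; the orange CHR bars stand tallest in the 2 bins just after the start and the bin just before it, where the grey bars stay near 1%.

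Almost all of the mitosis genes had higher values on the off-fucose array. The difference (log2 intensity off fucose minus that on fucose) was positive for 45 of the 47 and at least 1, which is 2-fold, for 19 of the 47. Of all 22180 genes, 47.6% had a positive difference and 1.20% were at least 2-fold higher. No member was at least 2-fold lower, beside 0.257% of all genes. The median difference was 0.80 over the 47 members and near 0 over all genes. A 3-fold limit was passed by 9 of the 47, beside 0.532% of all genes.

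The largest differences were in genes of entry into mitosis and of its machinery. Ccna2 (2.18), Plk1 (2.18), Mki67 (2.17), Birc5 (2.10), Cdk1 (2.09), Aurkb (2.06) and Ccnb2 (1.88) all ranked within the first 100 of all genes by difference. In all, 21 members were among the first 300. A further 12 members had differences from 0.5 to below 1, and 16 lay below 0.5. Of these last, 6 differed by less than 0.25 in either direction, namely Melk, Cdca3, Cenpf, Kif20a, Kif20b and Sgo1. The limit of 2-fold fell between Cdc20 (2.01-fold) and Ncapd2 (1.94-fold), so the count of 19 rests on a close call.

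**Figure D2:**
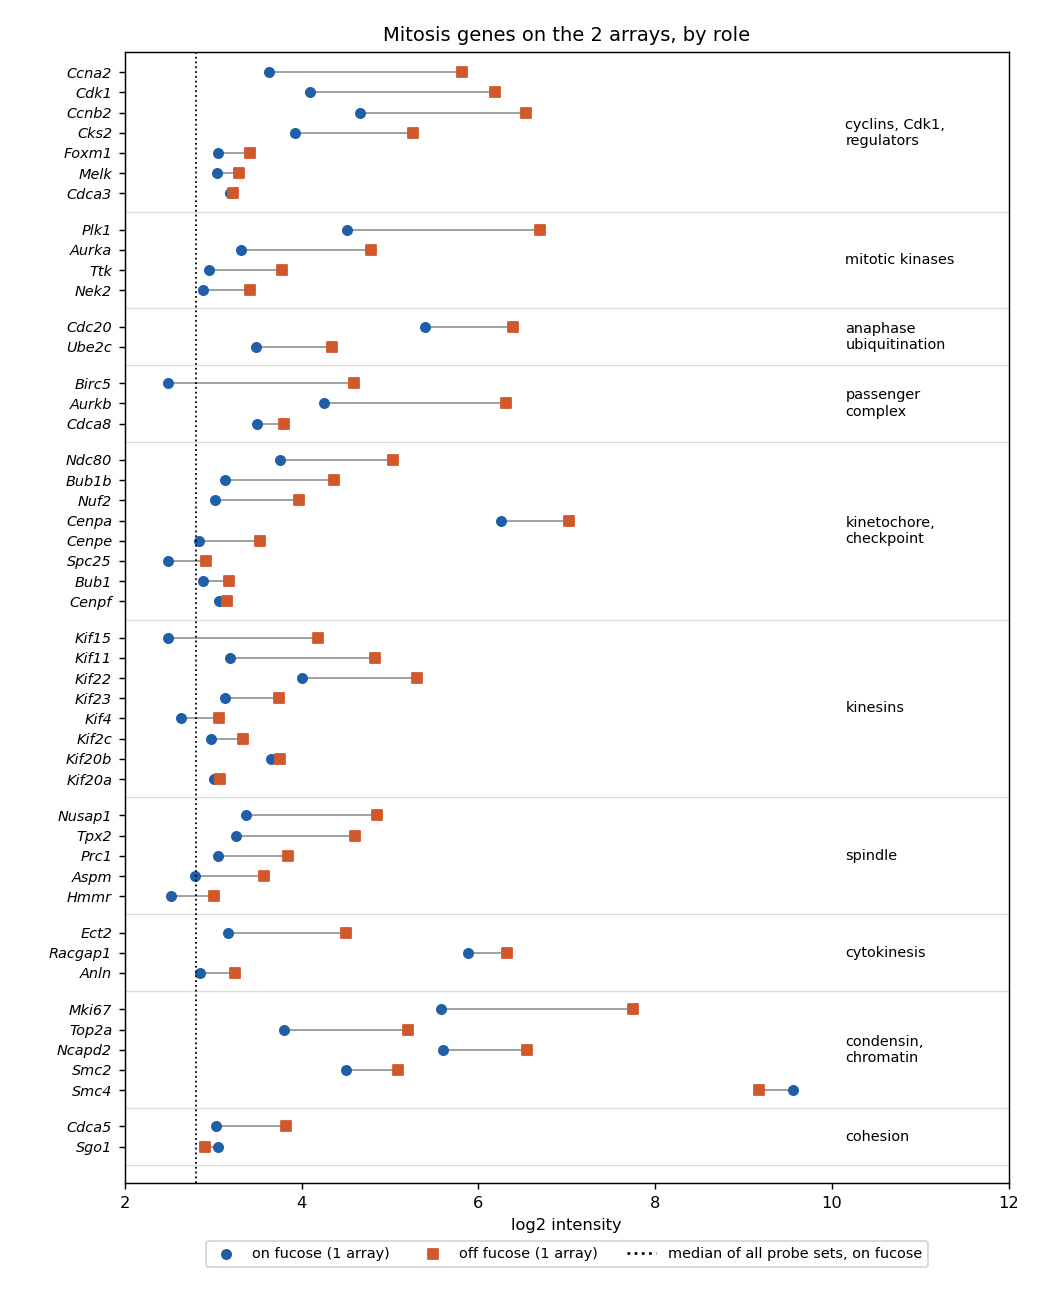
Log2 intensity of the 47 measured mitosis genes on the on-fucose array (blue circles) and the off-fucose array (orange squares), 1 array each, grouped by role and sorted by difference within a role. The dotted line is the median of all probe sets on fucose (2.81); 45 of the 47 squares lie to the right of their circle, and those of Smc4 and Sgo1 lie to the left.

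Cyclins and the kinase they switch on were among the members with the largest differences. Cyclin A2 (Ccna2, probe set 17404821) had log2 intensities of 3.63 (on fucose) and 5.81 (off fucose), a 4.55-fold difference. Cdk1, the kinase that drives entry into mitosis with cyclins A and B, had 4.10 and 6.19 (4.26-fold). Cyclin B2 (Ccnb2) had 4.66 and 6.54 (3.68-fold). Their differences ranked 64, 75 and 97 among all 22180 genes. Cks2, a small protein that docks on Cdk1, had 3.92 and 5.26 (difference 1.34). It had 4 probe sets, of which 3 held identical values, and the other had 3.60 and 5.35 (1.75), so all of them were higher off fucose.

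The other 3 genes of that group had low values on both arrays. Foxm1, a transcription factor of the G2 genes, had 3.05 and 3.42 (0.36). Melk, a kinase gene of dividing cells, had 3.05 and 3.29 (0.24). Cdca3, which helps degrade the mitotic brake Wee1, had 3.19 and 3.22 (0.03). Values this near the array median of 2.81 can understate differences, which was not tested for these genes, and their order is not fixed. For Cdca3, 112 of the 200 genes nearest to it in mean intensity had a smaller difference.

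Of the mitotic kinases, Plk1 had the largest difference and Nek2 the smallest. Polo-like kinase 1 (Plk1, probe set 17482739), which acts from entry into mitosis to cytokinesis, had 4.51 on fucose and 6.70 off fucose (4.54-fold). Aurora kinase A (Aurka), which matures centrosomes and the spindle poles, had 3.31 and 4.79 (2.78-fold). Both were past 2-fold, and the other two kinases were not. Ttk, the Mps1 kinase of the spindle checkpoint, had 2.96 and 3.77 (0.82), and Nek2, which splits the centrosomes, had 2.88 and 3.42 (0.53).

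Both listed genes of the anaphase-promoting ubiquitin ligase were higher off fucose. Cdc20, its activator, had 5.39 and 6.40 (2.01-fold), and Ube2c, the ubiquitin-conjugating enzyme that starts its chains, had 3.49 and 4.35 (0.86). Cdc20 had one of the higher on-fucose values of the list. Of the 200 genes of like mean intensity, 199 had a smaller difference than Cdc20, and 186 a smaller one than Ube2c.

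The chromosomal passenger complex, which corrects faulty attachments of chromosomes, was uneven. Its kinase Aurora B (Aurkb) had 4.25 and 6.31 (4.18-fold), and survivin (Birc5, probe set 17258867) had 2.48 and 4.59. The on-fucose value of Birc5 lay below the median of all probe sets, and with that median as a floor its difference was at least 1.78 in place of 2.10. Borealin (Cdca8) had 3.49 and 3.81 (0.31), and Incenp, the scaffold of the complex, which is not among the 48, had 3.37 and 3.57 (0.20). The kinase and survivin thus passed 2-fold, and Cdca8 and Incenp had smaller positive differences.

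All 8 kinetochore and checkpoint genes had positive differences, and 2 of the 8 were past 2-fold. Ndc80, whose complex grips spindle microtubules, had 3.75 and 5.03 (1.28). Bub1b, the BubR1 protein of the spindle checkpoint, had 3.13 and 4.36 (1.23). The partners of Ndc80 in its complex also had positive differences, at 0.95 in Nuf2, 1.54 in Spc24, which is not among the 48, and 0.42 in Spc25, whose 2.49 and 2.91 lie at the lower end of the array. Cenpa, the histone H3 variant that marks centromeres, had the highest values of this group and went from 6.26 to 7.03 (0.77), more than 197 of the 200 genes of like mean intensity. Cenpe, a kinesin of the kinetochore, had 2.84 and 3.53 (0.69). Bub1, a checkpoint kinase, had 2.89 and 3.18 (0.30). Cenpf had the smallest difference of the group, at 3.06 and 3.16 (0.09).

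The 8 kinesins, motors that move along microtubules, were all positive but ranged from 0.06 to 1.69. Of these, 3 passed 2-fold. Kif15 (probe set 17523494), which keeps the spindle bipolar, had 2.49 and 4.18, or at least 1.38 with the array median as a floor. Kif11, the Eg5 motor that pushes spindle poles apart, had 3.19 and 4.83 (3.14-fold). Kif22, a motor on chromosome arms, had 4.01 and 5.31 (1.30). None of the other kinesins passed 2-fold.

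The remaining 5 kinesins differed less. Kif23, the motor of the centralspindlin complex, had 3.13 and 3.75 (0.62). Kif4, a chromosome motor whose gene is X-linked, had 2.64 and 3.06 (0.42), and Kif2c, which takes microtubules apart at centromeres, had 2.98 and 3.34 (0.36). Kif20b, a motor of late mitosis, had 3.66 and 3.76 (0.10). Kif20a, a motor of the central spindle, had 3.01 and 3.07, the smallest difference of the group.

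Spindle proteins that are not motors were all higher off fucose. Nusap1, which bundles spindle microtubules, had 3.38 and 4.85 (2.78-fold). Its promoter is the one printed above without a match. Tpx2, the activator of Aurora A, had 3.26 and 4.61 (1.35). Prc1, which bundles the central spindle, had 3.05 and 3.85 (0.80). These were followed by Aspm, a spindle pole protein gene, at 2.79 and 3.57 (0.78), and by Hmmr, a microtubule-binding protein gene, with the smallest difference of the group, at 2.52 and 3.01 (0.49, or 0.21 with the array median as a floor).

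Of 3 genes of cytokinesis, the final cut between daughter cells, 1 was past 2-fold. Ect2, which activates the GTPase RhoA at the cleavage site, had 3.17 and 4.51 (1.34). Racgap1, the partner of Kif23 in centralspindlin, had 5.88 and 6.33 (0.45). Anln, the anillin gene, had 2.86 and 3.25 (0.39). Unlike Anln, Racgap1 lay well above the array median on both arrays.

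Genes that shape mitotic chromosomes held both the highest difference in this group and the largest negative one of the list. Mki67 (probe set 17497334), which coats mitotic chromosomes and is the usual marker of dividing cells, had 5.57 on fucose and 7.74 off fucose (4.50-fold). Top2a, the topoisomerase that untangles sister chromatids, had 3.80 and 5.20 (1.40). Its relative Top2b, which is used outside mitosis, had 7.07 and 7.01 (-0.06).

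Condensin I, the ring complex that compacts mitotic chromosomes, did not differ evenly. Ncapd2 had 5.60 and 6.55 (0.96), Ncaph, which is not among the 48, had 3.60 and 4.57 (0.97), and Smc2 had 4.51 and 5.10 (0.59). Smc4 (probe set 17398233), the ATPase partner of Smc2, had 9.55 (on fucose) and 9.18 (off fucose), or -0.38. Of the 200 genes of like mean intensity 16 had a smaller difference than Smc4, against a robust SD of 0.23 among them. Centring on the T cell list made it -0.03. Of the 3 subunits that belong to condensin II alone, Ncapg2 had 2.92 and 4.17 (1.24), while Ncapd3 (0.01) and Ncaph2 (-0.02) stood near 0.

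Of the 2 genes of sister chromatid cohesion, sororin (Cdca5), which protects cohesin until anaphase, had 3.04 and 3.82 (0.78). Shugoshin (Sgo1), which guards the centromere, had 3.05 and 2.90 (-0.14), and 53 of the 200 genes of like mean intensity had a smaller difference. Sgo1 and Smc4 were the only members with negative differences.

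The differences were set beside those of genes of like level, because intensities near the lower end of an array can understate differences. For each member, the 200 other genes nearest in mean log2 intensity were taken, 6169 distinct genes in all. Of these, 2.58% were at least 2-fold higher and 44.4% had a positive difference. Among the members, 45 of 47 lay above the median of their 200 genes, and 31 lay more than 2 robust SDs above it. The share of all genes past such a limit was not computed, so the count of 31 has no background beside it. The robust SD ran from 0.19 to 0.40, and it mixes technical with biological differences between the arrays. With genes matched on the on-fucose value alone, 1.91% of 6504 genes were 2-fold higher.

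Members were also split by level, as a description. Of 19 members whose mean log2 intensity reached 4, 14 reached 2-fold and the median was 1.40, beside 2.17% of the 6910 other genes at that level. Of 28 members below a mean of 4, 5 were 2-fold higher, with a median of 0.51, beside 0.637% of 15223 other genes. The mean includes the off-fucose value, so a member can enter the upper set through the value that makes it differ, and the split is in part built in. The 5 members at or above a mean of 4 that stayed below 2-fold were Smc4, Smc2, Cenpa, Racgap1 and Ncapd2, and the 5 members below it that passed 2-fold were Birc5, Kif15, Bub1b, Tpx2 and Ect2. Across the 47 members, which share the same 2 arrays, the difference and the mean had a Pearson's r of 0.26 and a Spearman's rho of 0.57, which share that limit.

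**Figure D3:**
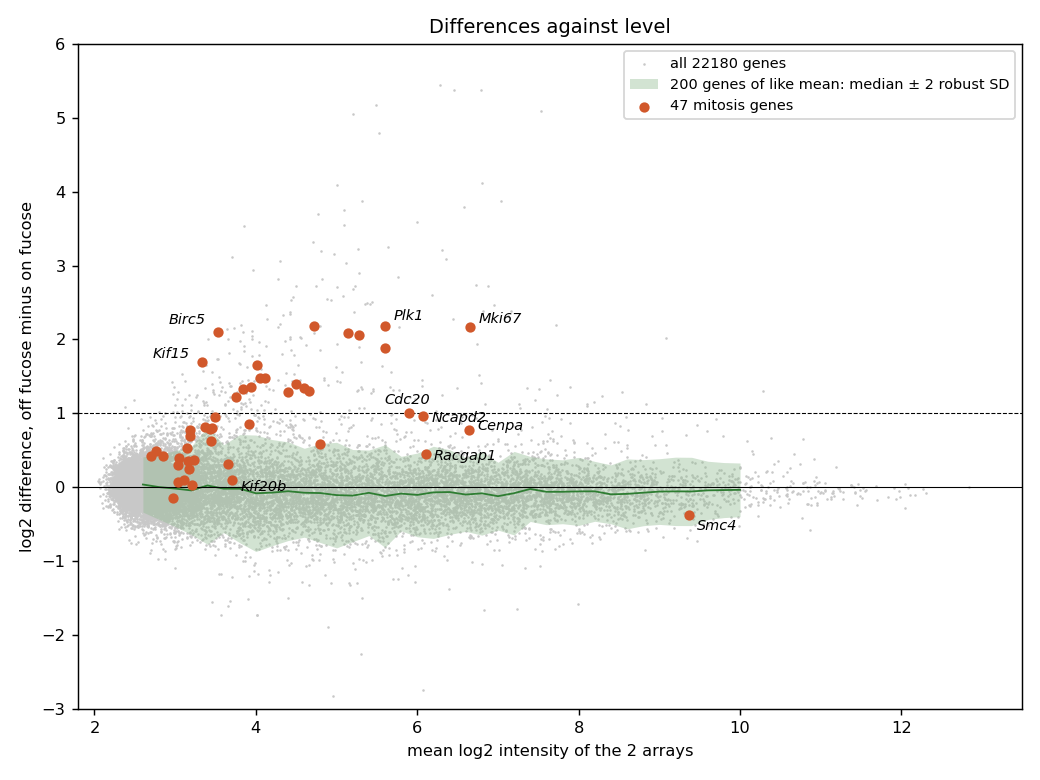
Log2 difference (off fucose minus on fucose) against the mean log2 intensity of the 2 arrays, for all 22180 genes (grey) and the 47 mitosis genes (orange). The green line and band are the median ± 2 robust SDs of the 200 genes nearest in mean, and the dashed line marks 2-fold. Of the 47 orange points, 31 lie above the band of their own 200 genes, while Smc4 lies below 0. The share of all genes above such a band was not computed.

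Members with and without the promoter letters overlapped in their differences. The 32 measured members with a TTTGAA match had a median difference of 0.81, and 13 of these were at least 2-fold higher. The 9 without one had a median of 0.69, and 3 were 2-fold higher. The 4 measured members with neither a TTTGAA match nor a CCAAT box in the window were Birc5 (2.10), Nusap1 (1.48), Nuf2 (0.95) and Melk (0.24). Birc5 did hold a match to the variant TTTAAA, as did Cenpe (0.69) among the 9 without a TTTGAA match. The 26 with both ranged from 0.03 in Cdca3 to 2.18 in Plk1, with a median of 0.84. These medians describe small groups and were not tested.

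Further genes of mitosis, listed beside the 48, were also higher off fucose but less so. Of 62 measured genes of 68, 52 had a positive difference, 6 reached 2-fold and the median was 0.37. Pbk, a kinase gene of dividing cells, had 3.17 and 5.50 (2.33), and Mybl2, which encodes B-Myb, had 3.53 and 5.56 (2.03). Spc24 (1.54), Fam83d (1.29), Knl1 (1.22) and Spag5 (1.20) completed the 6. Cdc25b, a phosphatase that activates cyclin-dependent kinases, had the most negative difference, at 4.85 and 4.41 (-0.44). Cks1b, the sister gene of Cks2, had 4.35 and 5.25 (0.90).

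Relatives of the members that act outside mitosis or in all cells had no such differences. They were not matched to the members in level. Their median log2 intensities were 6.69 (on fucose) and 6.52 (off fucose), beside 3.19 and 4.35 for the members. Not all of the relatives are foreign to mitosis, since Smc1a and Smc3, for example, are also in the cohesin list. The relatives also include Nek6, Nek7, Nek9 and Kif2a, and none of these was shown here to act only outside mitosis. Of 39 measured genes of 41, none was 2-fold apart in either direction, 12 were positive and 27 negative, and the median was -0.11. The most negative was the endosome motor Kif16b, at 5.73 and 4.97 (-0.76), and the most positive were Ccnl1 (0.37) and Cdk5 (0.27). Among relatives of Plk1, Plk2 had 0.09 and Plk3 0.20. The cargo motor Kif5b, a relative of the mitotic kinesins, had 7.88 and 7.71 (-0.17). Centring on the T cell list turned the median of these relatives to 0.23. Of 12 genes of cohesin and condensin II, 7 were positive and 1, Ncapg2, was past 2-fold, with a median of 0.01. Pds5a (-0.23) and Stag2 (-0.29) were at its lower end, and Smc3 (0.16) followed Ncapg2 at the upper end.

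Regulators of the programme mostly differed little. Of 22 genes of the MuvB, E2F, Rb and NF-Y families, 13 were positive, 2 reached 2-fold and the median was 0.07. These 2 were E2f8, a repressor made late in S phase, at 3.41 and 6.23 (2.82), and Mybl2, which both lists hold. Lin9, a subunit of MuvB, had the most negative difference, at 3.89 and 3.42 (-0.47). Of 8 measured G1 cyclins and kinases, 2 were 2-fold higher, Cdk6 at 4.65 and 5.98 (1.34) and cyclin E1 (Ccne1) at 4.63 and 5.67 (1.04), and Cdc25a was lowest at -0.18. The median of that list was 0.18.

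Genes of resting cells and of kinase inhibition had small differences. Of 16 such genes, 13 had negative differences, beside 11100 of all 22180 genes, and none was 2-fold apart. The median of the 16 was -0.18, which centring on the T cell list turned to 0.17. Foxo1, a transcription factor of resting lymphocytes, had 8.40 and 7.99 (-0.41), and the inhibitor genes Cdkn2c (0.38) and Cdkn1a (0.18) had the most positive differences. Genes of S phase, when DNA is copied, were higher off fucose as the mitosis genes were. All 33 measured had positive differences and 8 were 2-fold higher, with a median of 0.68. Cdc6, which loads the replicative helicase, had 3.20 and 5.40 (2.20), followed by Uhrf1 (1.43), and Hells had the smallest difference (0.23).

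**Figure D4:**
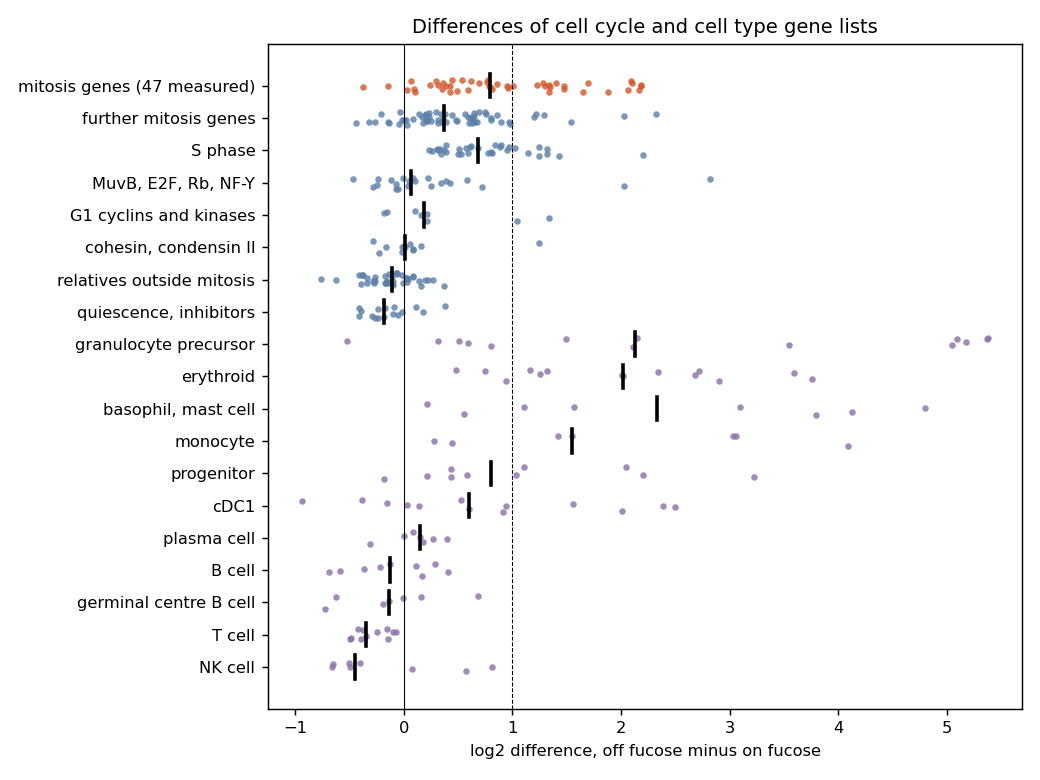
Log2 differences (off fucose minus on fucose) of single genes, 1 point a gene, for the 47 measured mitosis genes (orange), other cell cycle lists (blue) and cell type marker lists (purple). Black bars are medians and the dashed line marks 2-fold. The mitosis genes have a median of 0.80 and their relatives outside mitosis or in all cells one of -0.11. The granulocyte precursor, erythroid and basophil lists lie at 2.02 or more.

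Markers of several precursor cells moved with the mitosis genes, and their part in the result was not tested. In the granulocyte precursor list, 13 of 14 genes were higher off fucose and 9 were 2-fold higher, and its summed linear intensity was 142 on fucose and 3021 off fucose, with Elane (5.38) and Ctsg (5.37) at the upper end and Gfi1 (-0.52) at the lower. In the erythroid list, all 14 measured genes of 19 were higher and 11 were 2-fold higher, led by the anion exchanger Slc4a1 (3.76) and the blood group gene Rhd (3.59). Its sums were 410 and 1912, of which Car1 gave the largest part (8.07 and 10.09 log2). In the basophil and mast cell list, all 8 were higher and 6 were 2-fold higher, with sums of 122 and 1368. In the monocyte list, all 7 were higher and 5 were 2-fold higher (1443 and 2249, sums that Ly6c2 dominates at 10.44 and 10.89 log2). In the progenitor list, 9 of 10 measured genes were higher and 5 were 2-fold higher (211 and 483). In the cDC1 list, 10 of 13 measured genes were higher and 4 were 2-fold higher (686 and 1033). Irf8 (2.50) and Naaa (2.39) were at the upper end and Ly75 (-0.93) at the lower. Cd8a, which T cells also express, gave the largest part of the on-fucose sum (log2 intensities of 8.37 and 8.22). The sums of that list are therefore not a level of cDC1 alone.

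Taken as lists, lymphocyte markers did not move with the mitosis genes. All 11 T cell genes were lower off fucose, by at most 0.50 (Cd5), with summed intensities of 12671 and 10459. Of 9 measured B cell genes 4 were higher, with sums of 94.8 and 87.2, and of 7 measured germinal centre B cell genes 2 were higher (173 and 134). Of 7 plasma cell genes 5 were higher, none by 2-fold (162 and 181), and of 8 NK cell genes 3 were higher (576 and 461). Single genes did differ more, with Klrk1 (0.81) and Ncr1 (0.57) in the NK list and Gcsam (0.69) in the germinal centre list. In each of these 2 lists 5 genes were lower, down to Tbx21 (-0.66) and Fas (-0.73). The mitosis genes themselves summed to 1460 on fucose and 2226 off fucose, a sum that Smc4 dominates. In bulk RNA, more dividing cells and more of these transcripts per cell cannot be told apart.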

How the data were processed

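RNA (9 ng) from each of 2 samples was hybridised to an Affymetrix whole-transcript mouse array, per the labels' protocols. The deposited table holds 1 linear intensity per probe set and array, which the authors obtained with RMA according to the submitters' processing notes; the version, settings and genome build are not given in the sources used here. The intensities ran from 2.74 to 9512, so log2 was taken of each. Arrays have no read depth. RMA makes array distributions alike and thereby hides any shift common to all genes.

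The platform annotation named the genes: of 41345 probe sets, 23521 had 1 symbol, 1814 several and 16010 none listed. Names of 4 list genes were updated through RefSeq synonyms. No expression filter was applied, and 44 of the 47 measured mitosis genes would have passed one at the median gene (a mean of 2.88). The robust SD is the scaled median absolute deviation. Values and lists were handled in Python 3.11.15 with pandas 2.3.3 and statsmodels 0.14.6 (loess), and the calculation was tested on simulated data.

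The mitosis genes and all lists were chosen with earlier results of these data known. Members with the largest and smallest difference of each role were named, with others to describe a group, and other lists by their 2 highest and lowest genes or by counts alone. A planned search for protein motifs was not made. Alternatives covered probe sets, filters, normalisation, centring, a floor and the fold limit.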

Additional observations from a re-analysis of the deposited data

Results flagged for a closer look

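Ncapg, a subunit of condensin I, lay outside every count because its probe set also names Lcorl. That probe set (17437278) had log2 intensities of 2.71 (on fucose) and 3.99 (off fucose), 1.28 apart, and was singled out because it holds a signal outside the comparison that is higher than on the on-fucose array. Which of the 2 genes gave it cannot be told apart. The other probe sets that name a member together with another gene differed less, at -0.09 and 0.14 for Top2a with Taf1d and 0.10 for Nusap1 with Oip5.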

How the results depend on the processing

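No paired analysis was possible because there is only 1 array in a group, and no array could be left out. The 19 mitosis genes at least 2-fold higher were called again, all 19 of them, after quantile normalisation and loess (20 calls each), median centring, the mean of all probe sets and a floor at the array median, and 17 of them among the 41 members at or above the array median on fucose. No member was 2-fold lower under any setting. The count was 30 at 1.5-fold and 9 at 3-fold. Centring on the T cell list, which moved the median of all genes from near 0 to 0.34, gave 28, and 579 of all genes were 2-fold higher and 18 lower, in place of 266 and 57. That centring adds 1 value to each difference. It gave medians of 1.14 for the mitosis genes, 0.71 for the further mitosis genes and 0.23 for the relatives outside mitosis or in all cells. At a mean intensity of at least 4, a setting added after seeing the data, the median was 1.40 over 19 members. Over all genes, 711 were higher at 1.5-fold and 118 at 3-fold. Without Sgo1 the median was 0.81. Low signal limits the dim members, and the floor moved 5 of the 47 differences by 0.1 or more.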
